A study of Mus musculus with 18 samples.

Results

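The mouse mitochondrial genome encodes 37 genes, and all 37 were found among the 37991 gene identifiers counted in this kidney injury series. They were taken as every identifier whose symbol starts with mt-, a rule that uses no measured value, and comprise 2 rRNA genes, 13 mRNA genes and 22 tRNA genes. RNA-seq of whole kidney from male Balb/c mice covered 6 groups with 3 libraries each: untreated kidney, and kidney taken 1, 2, 3, 7 or 14 days after a single intraperitoneal injection of folic acid at 250 mg/kg in 0.3 M sodium bicarbonate, a dose that injures the renal tubules. Libraries were made from 10 ng of total RNA by SPIA, a linear amplification of cDNA, and the labels name no step that removes rRNA. All animals were of the same strain and sex, and the labels name no genetic change. No vehicle-injected group was analysed here, so effects of folic acid, bicarbonate and the injection cannot be told apart. The labels do not say whether the libraries of a group came from separate animals, so p-values measure the spread between these libraries, which may be technical.

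The mitochondrial genome is a small circular DNA in which both strands are transcribed into long RNAs that are cut, largely at the tRNA genes, into rRNAs, mRNAs and tRNAs. The rRNAs form the mitochondrial ribosome, the mRNAs encode core subunits of respiratory complexes I, III and IV and of ATP synthase (complex V), and the tRNAs translate them. Proximal tubule cells of the kidney are rich in mitochondria and depend on oxidative phosphorylation for reabsorption. In whole kidney, fewer cells of a type and less RNA per cell cannot be told apart.

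The libraries held between 8.68 and 54.6 M gene reads (M, 1000000 reads), of which 2.83 to 17.2 M came from genes other than the mitochondrial ones. Day 2 replicate 2 was the smallest library. Kidney markers were present: the proximal tubule gene Lrp2 had 1746 to 2179 CPM in untreated kidney. The muscle gene Ckm and the adrenal gene Cyp11b1 had no read in any library. The brown fat gene Ucp1 had 0.125 to 9.29 CPM in untreated kidney and up to 1.63 CPM on day 3. The adrenal gene Star had 1.25 to 3.57 CPM in untreated kidney and 0.855 to 10.1 CPM on day 7. Whether tissue next to the kidney was carried over was not tested. Here and below, CPM are reads per 1000000 gene reads after TMM scaling, which lines up the bulk of genes between libraries.

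Mitochondrial transcripts took up most of each library. Their share of gene reads was 72.3 ± 3.22% in untreated kidney, 69.1 ± 0.661% on day 1, 65.0 ± 2.10% on day 2, 61.6 ± 3.52% on day 3, 64.5 ± 1.59% on day 7 and 70.3 ± 2.83% on day 14 (mean ± SD, n = 3 each). The groups differed by an exact permutation test over all partitions of the 18 libraries into 6 groups of 3 (p = 0.00127, adjusted p = 0.00636 over 10 shares and ratios). The lowest day was day 3, where all 3 libraries lay below all 3 untreated libraries.

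The rRNA and mRNA genes followed different courses within that total. The rRNA genes took 65.3, 62.3 and 68.3% of gene reads in the untreated libraries, 63.2, 64.4 and 63.1% on day 1, 59.5, 61.9 and 59.9% on day 2, 56.3, 54.9 and 61.3% on day 3, 59.1, 59.7 and 62.9% on day 7, and 64.4, 68.3 and 64.3% on day 14. The share was lowest on day 3. It overlapped the untreated range on days 1, 7 and 14, and lay below it only on days 2 and 3. The 13 mRNA genes took 6.73, 6.86 and 7.24% of gene reads in the untreated libraries, 5.79, 5.40 and 5.44% on day 1, 4.68, 5.57 and 3.59% on day 2, 3.78, 4.09 and 4.25% on day 3, 4.43, 3.93 and 3.42% on day 7, and 5.22, 5.10 and 3.60% on day 14. All 15 folic acid libraries were below all 3 untreated libraries, and day 14 was still 1.49-fold lower than untreated. The group means of the mRNA share were 5.54 ± 0.214% on day 1, 4.61 ± 0.989% on day 2, 4.04 ± 0.240% on day 3, 3.93 ± 0.505% on day 7 and 4.64 ± 0.905% on day 14, against 6.94 ± 0.265% in untreated kidney (SD, n = 3 each).

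Both classes differed across the 6 groups by the exact permutation test, with p = 0.00484 for the rRNA share (adjusted p = 0.0161) and p = 0.000857 for the mRNA share (adjusted p = 0.00636). The 22 tRNA genes together took 0.0111 ± 0.00140% of gene reads in untreated kidney, 0.00798 ± 0.00104% on day 1, 0.00536 ± 0.000865% on day 2, 0.00635 ± 0.00111% on day 3, 0.00583 ± 0.00205% on day 7 and 0.00764 ± 0.00203% on day 14. All 15 folic acid libraries lay below all 3 untreated libraries in tRNA share as well (exact permutation p = 0.00655, adjusted p = 0.0164). Between any pair of groups, 3 libraries against 3 allow no exact two-sided p below 0.1, and the mRNA share gave that smallest value at every day against untreated. In a single library the widest 95% Wilson interval was ±0.0323 percentage points for the rRNA share and ±0.0153 for the mRNA share, and it covers counting error only, since amplified reads are not independent molecules.

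**Figure D1:**
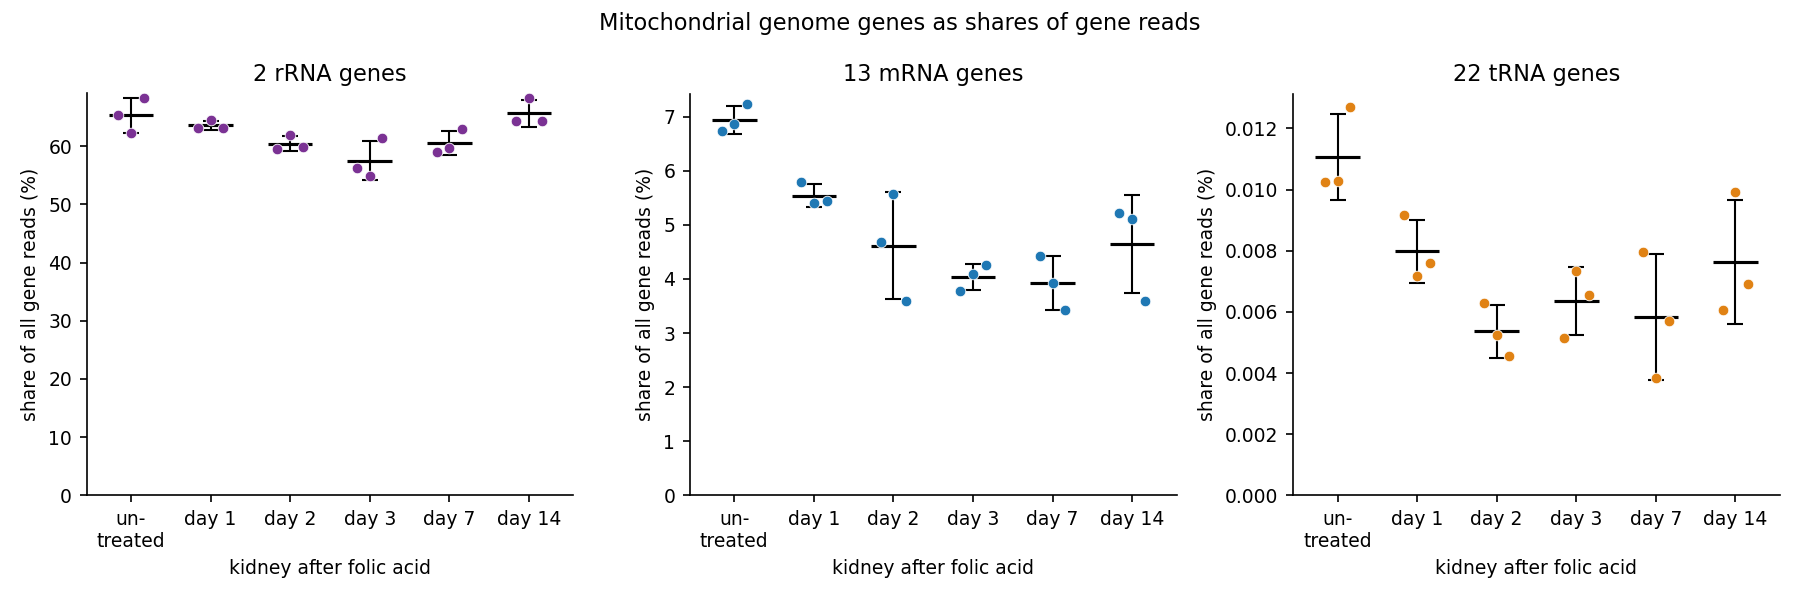
Share of all gene reads (%, vertical axes starting at 0) taken by the 2 rRNA genes, the 13 mRNA genes and the 22 tRNA genes in each of the 18 libraries (points), with the group mean (bar) and SD (whiskers), from untreated kidney to day 14. The mRNA and tRNA shares of all 15 folic acid libraries sit below the untreated libraries, whereas the rRNA share on day 14 (65.7%) is level with untreated (65.3%).

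Levels of different genes were compared per length, as reads per kilobase per 1000000 gene reads. In untreated kidney mt-Rnr2, the large-subunit rRNA, had 309548 ± 14272 and mt-Rnr1, the small-subunit rRNA, had 171103 ± 9399 of these units (SD, n = 3 each). The mRNA gene with the most assigned reads per length was mt-Co1, the catalytic subunit of cytochrome c oxidase (complex IV), with 10710.0 ± 1359.9 on day 7 and 16672 ± 1469 in untreated kidney. Reads with several alignments were assigned to no gene, so this does not rank the mRNAs by abundance. The cytochrome b gene mt-Cytb had 3225 ± 270 on day 7 and 6898 ± 345 in untreated kidney. The complex I gene mt-Nd6, the only mRNA encoded on the strand opposite to the others, had 854 ± 330 on day 7 and 1511 ± 336 in untreated kidney. The strand setting of the counting is not given, so mt-Nd6 reads, here and below, may include RNA from the other strand.

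Several mitochondrial genes share long stretches of sequence with nuclear pseudogenes. mt-Nd4l had 1 to 15 reads in a library, although it is followed directly by mt-Nd4, which had 41626 to 479802. Of the 50-base windows of mt-Nd4l, 98.8% occur letter for letter in a nuclear pseudogene transcript of the GENCODE M21 set, Gm10222. The same held for 100% of the windows of mt-Co2, 99.9% of mt-Co3, 99.5% of mt-Atp6, 98.0% of mt-Nd3, 62.2% of mt-Nd4 and 51.1% of mt-Co1. It held for 8.19% of the windows of mt-Nd2, 7.61% of mt-Nd5, 1.04% of mt-Rnr2, and for no window of mt-Rnr1, mt-Nd1, mt-Atp8, mt-Nd6, mt-Cytb or any tRNA gene. Reads with several alignments, 18.4 to 28.5% of all tallied alignments, were assigned to no gene, so the levels of the genes with such copies are uncertain. Read length and the genome of the Balb/c animals were not part of this comparison. Nor were inexact copies and nuclear sequence outside the annotated transcripts.

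**Figure D2:**
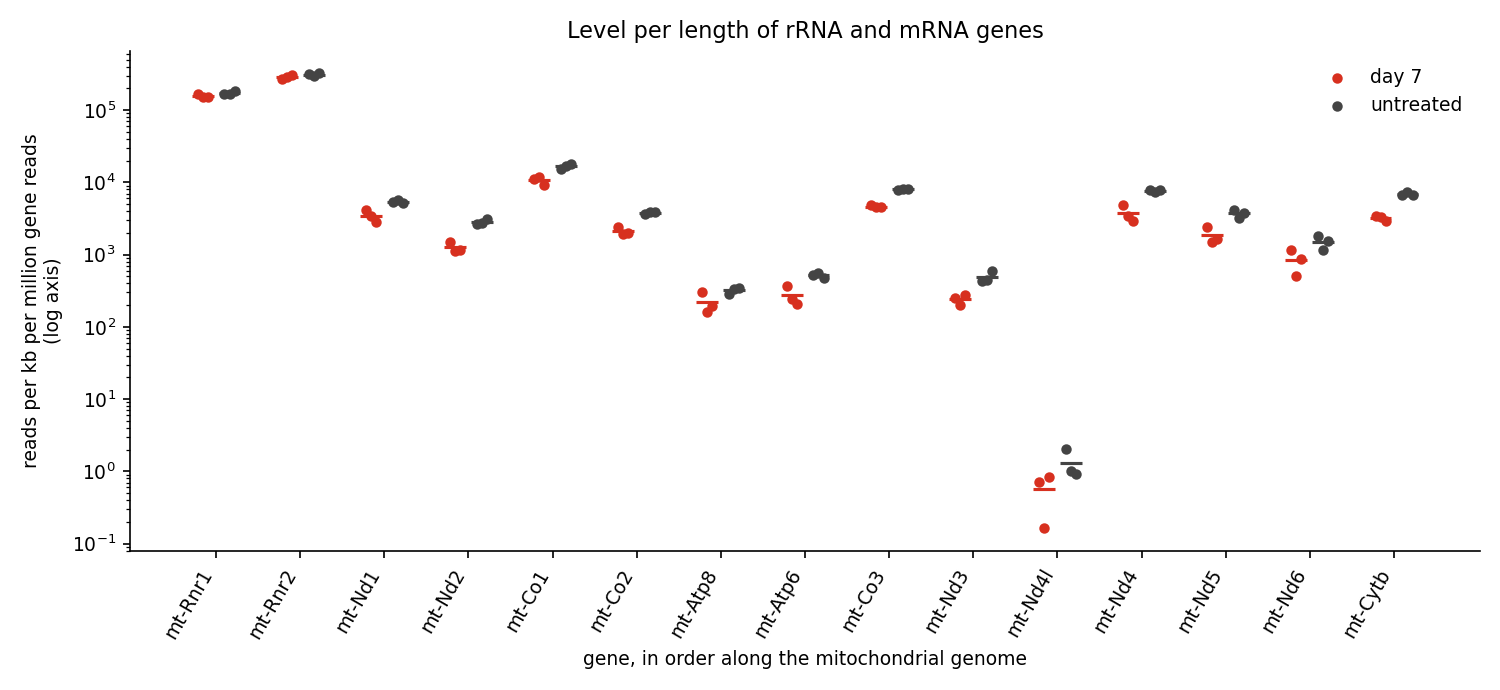
Level per length of the 2 rRNA and 13 mRNA genes, in order along the mitochondrial genome, on day 7 (red, left of each pair) and in untreated kidney (grey, right), as reads per kilobase per 1000000 gene reads on a log axis. Points are libraries and bars are means of 3. The rRNAs are the highest at both times, the mRNA genes are lower on day 7, and mt-Nd4l is at 1.32 units in untreated kidney.

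The differences of single genes against untreated kidney were tested with edgeR's quasi-likelihood test over 16824 genes, with Benjamini-Hochberg adjustment over all of them. Of the 37 mitochondrial genes, 32 had enough reads: both rRNAs, 12 of 13 mRNAs (all but mt-Nd4l) and 18 of 22 tRNAs (all but mt-Tv, mt-Tw, mt-Tk and mt-Ts2). Those that passed the test (adjusted p under 0.05) were lower than untreated on every day, and none was higher, although 5.09% of all tested genes rose on day 1, 7.19% on day 2, 4.18% on day 3, 3.88% on day 7 and 1.24% on day 14. On day 1, 2 of 32 fell, where 5.56% of all tested genes fell. On day 2, 6 of 32 fell against 5.98% of all genes. On day 3, 18 of 32 fell against 3.43%, and on day 7, 19 of 32 fell against 3.85%. On day 14, 1 of 32 fell against 0.309%. The 5 comparisons share the untreated libraries. Across all 6 groups 16 of 32 differed, against 19.7% of all genes.

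The median log2 fold change of the tested mRNA genes was -0.52 on day 1, -0.83 on day 2, -1.46 on day 3, -1.56 on day 7 and -0.90 on day 14. The medians of the 2 rRNA genes were smaller in size on each day, at -0.20, -0.25, -0.78, -0.80 and -0.34. The medians of the tested tRNA genes were -0.93, -1.38, -1.77, -1.76 and -0.69. The median of all 16824 genes stayed between 0.03 and 0.07.

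**Figure D3:**
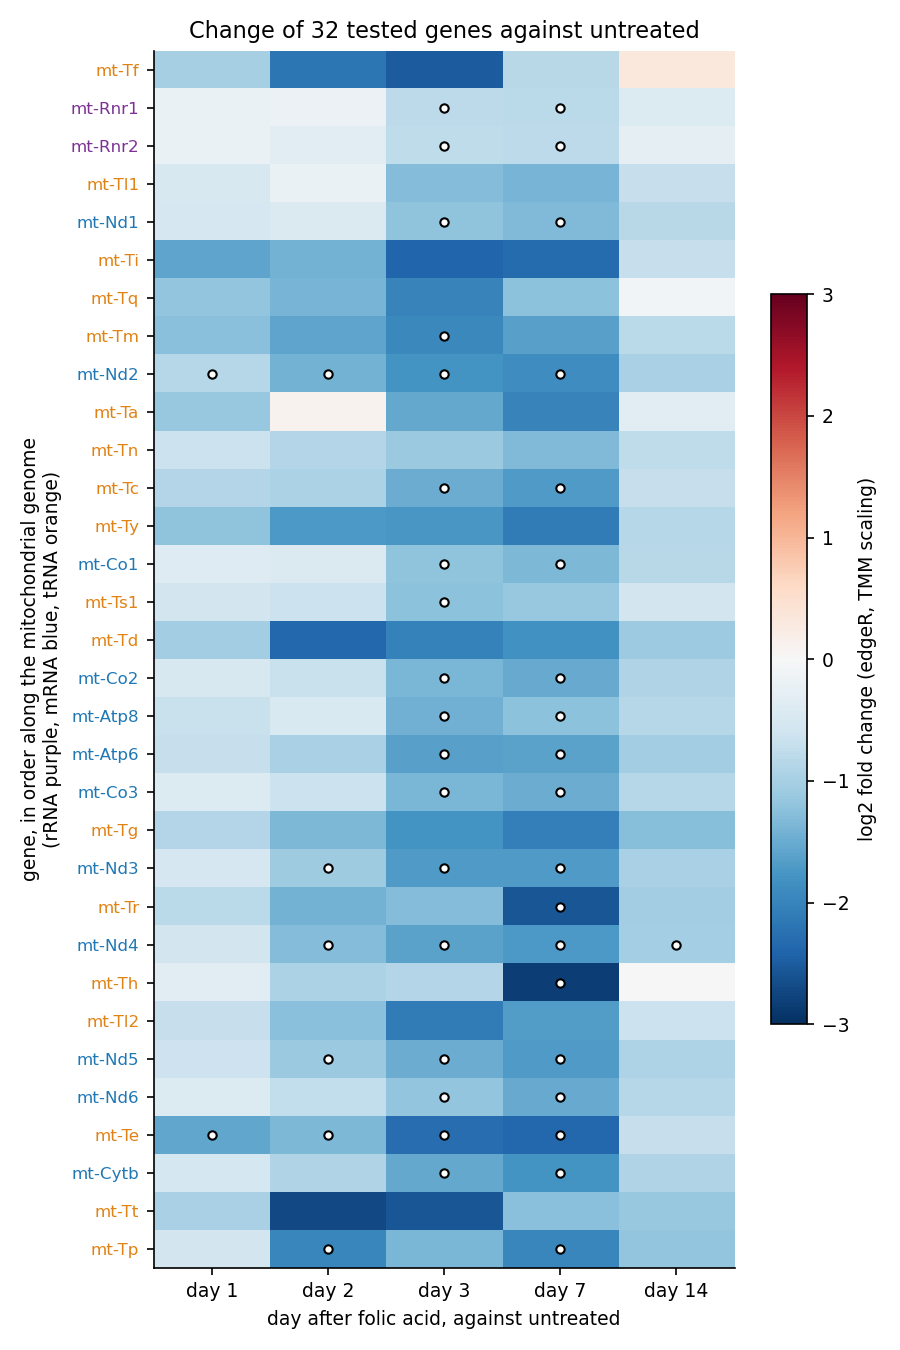
Log2 fold change against untreated kidney (edgeR, TMM scaling; blue lower, red higher) of the 32 tested mitochondrial genes, in order along the genome from top to bottom, at each day after folic acid. Circles mark an adjusted p under 0.05: 2 genes on day 1, 6 on day 2, 18 on day 3, 19 on day 7 and 1 on day 14, all lower than untreated.

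The rRNA genes fell on days 3 and 7. mt-Rnr1 had 199113, 177182 and 241234 CPM in untreated kidney, 196761, 176455 and 162399 on day 1, 136970, 264979 and 142208 on day 2, 115000, 111527 and 129798 on day 3, 123118, 106731 and 122194 on day 7, and 147713, 185733 and 130155 on day 14. mt-Rnr2 had 619603, 522874 and 707647 CPM in untreated kidney, 545845, 546755 and 522351 on day 1, 414399, 642390 and 423576 on day 2, 355723, 313955 and 419863 on day 3, 331658, 332216 and 404773 on day 7, and 470599, 605871 and 452982 on day 14. For both genes the libraries of days 3 and 7 lay below all untreated libraries, and those of days 1, 2 and 14 overlapped them. On day 7 the log2 fold change was -0.81 ± 0.20 (SE) for mt-Rnr1 and -0.79 ± 0.17 for mt-Rnr2, with edgeR adjusted p = 0.0181 and 0.00642. On day 3 it was -0.79 ± 0.20 and -0.76 ± 0.17, with edgeR adjusted p = 0.0215 and 0.00861.

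Both calls on the rRNA genes rest on the scaling. With gene-read totals alone as the scale, neither gene passed the test on any day, with log2 fold changes of -0.12 and -0.11 on day 7, and mt-Rnr2 turned to 0.04 on day 14. That scale moves the median of all genes to 0.64 on day 3 and 0.74 on day 7, so that both rRNA genes lay below the median gene on that scale too. mt-Rnr1 also lost its call on day 3 without untreated replicate 3, day 3 replicate 1 or day 3 replicate 2 (edgeR adjusted p between 0.0682 and 0.0803), and on day 7 without untreated replicate 3 or day 7 replicate 2 (0.0708 and 0.0686).

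Among the tested mRNA genes, the edgeR test across the 6 groups ranked mt-Nd2 and mt-Nd4 of complex I highest. It ranked mt-Nd6, also of complex I, lowest. The complex I genes mt-Nd3, mt-Nd1 and mt-Nd5 ranked behind mt-Co2 and mt-Co3 of complex IV. mt-Nd2, a membrane subunit of complex I, had 3514, 3224 and 4432 CPM in untreated kidney, 2380, 2034 and 1803 on day 1, 1425, 1767 and 999 on day 2, 936, 969 and 1316 on day 3, 1206, 866 and 997 on day 7, and 2069, 2370 and 1295 on day 14. All 15 folic acid libraries were below the untreated ones, and it was the only mRNA that fell on day 1 (1.80-fold lower, edgeR adjusted p = 0.0322). That call was lost without untreated replicate 1 or 3 or day 1 replicate 2 or 3 (edgeR adjusted p between 0.06 and 0.125), while on days 2, 3 and 7 it was kept without any 1 library. On day 7 mt-Nd2 was 3.64-fold lower than untreated (log2 fold change -1.86 ± 0.25, adjusted p = 0.00024).

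mt-Nd4, another proton-pumping subunit, had 13453, 11402 and 15098 CPM in untreated kidney, 9266, 9167 and 8820 on day 1, 5612, 7036 and 3626 on day 2, 4102, 4196 and 4816 on day 3, 5162, 3505 and 3411 on day 7, and 6936, 8404 and 4411 on day 14. It too stayed below untreated in all 15 libraries, and it fell 2.46-fold on day 2, 3.05-fold on day 3 and 3.31-fold on day 7 (edgeR adjusted p = 0.00163, 0.000552 and 0.000342). mt-Nd5, which pumps protons at the far end of the membrane arm, had 9376, 6666 and 9675 CPM in untreated kidney, 6008, 5770 and 4854 on day 1, 3507, 5629 and 2670 on day 2, 2395, 3284 and 3483 on day 3, 3440, 1996 and 2512 on day 7, and 4094, 6242 and 3177 on day 14. Its folic acid libraries did not overlap the untreated ones on any day, and it fell on days 2, 3 and 7. Without day 2 replicate 3 the day 2 call was lost (log2 fold change -0.91, adjusted p = 0.055).

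mt-Nd3, a small complex I subunit, had 191, 172 and 285 CPM in untreated kidney, 157, 155 and 148 on day 1, 120, 103 and 88.2 on day 2, 64.0, 49.7 and 86.1 on day 3, 68.2, 51.1 and 81.9 on day 7, and 133, 124 and 73.5 on day 14. mt-Nd1, which helps to form the quinone site, had 6344, 6071 and 6935 CPM in untreated kidney, 4840, 4445 and 4327 on day 1, 4119, 6363 and 3768 on day 2, 2594, 2685 and 3064 on day 3, 3023, 2379 and 2264 on day 7, and 3572, 4706 and 2629 on day 14. mt-Nd3 fell on days 2, 3 and 7, whereas mt-Nd1 passed the test on days 3 and 7 and its day 2 libraries overlapped untreated through replicate 2. The day 2 call of mt-Nd3 was lost without untreated replicate 3 or day 2 replicate 3 (edgeR adjusted p = 0.0891 and 0.0622). mt-Nd6 was 2.85-fold lower on day 7 (log2 fold change -1.51 ± 0.36, edgeR adjusted p = 0.0142) and 2.28-fold lower on day 3 (adjusted p = 0.0473). The day 3 call of mt-Nd6 held in only 1 of 6 leave-one-out fits, and the day 7 call in 4 of 6.

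The complex IV genes fell on days 3 and 7. mt-Co2, the subunit that receives electrons from cytochrome c, had 3092, 2957 and 3664 CPM in untreated kidney, 2344, 2215 and 2442 on day 1, 2231, 2507 and 1343 on day 2, 1214, 1084 and 1431 on day 3, 1280, 974 and 1145 on day 7, and 1811, 2139 and 1240 on day 14. mt-Co3, a core subunit, had 7666, 7176 and 8957 CPM in untreated kidney, 6679, 5949 and 5400 on day 1, 4489, 7085 and 3752 on day 2, 2795, 2811 and 3621 on day 3, 2904, 2612 and 3011 on day 7, and 4669, 5479 and 3109 on day 14. Every folic acid library of both genes was below every untreated one, and both calls on days 3 and 7 were kept without any 1 library. On day 7 mt-Co2 was 2.86-fold and mt-Co3 2.79-fold lower than untreated (edgeR adjusted p = 0.0006 and 0.000704). mt-Co1 had 29493, 28871 and 38964 CPM in untreated kidney, 26885, 23693 and 23927 on day 1, 17206, 40578 and 14576 on day 2, 13595, 12982 and 15722 on day 3, 13300, 13375 and 11880 on day 7, and 20001, 22089 and 12937 on day 14. In TMM-scaled CPM, day 2 replicate 2 was the highest of the 18 libraries for mt-Co1. That library also had the lowest TMM factor (0.682), which raises its CPM. Without it mt-Co1 fell on day 2 as well (log2 fold change -1.04, edgeR adjusted p = 0.00253). The day 3 call of mt-Co1 was lost without day 3 replicate 2 (edgeR adjusted p = 0.0598).

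mt-Cytb, the only mitochondrial gene of complex III, had 9482, 9361 and 10803 CPM in untreated kidney, 8178, 6034 and 6414 on day 1, 3995, 9164 and 2576 on day 2, 3373, 3019 and 3887 on day 3, 2986, 2836 and 2792 on day 7, and 6189, 6570 and 3093 on day 14. No folic acid library reached the untreated range, and it was 2.88-fold lower on day 3 and 3.44-fold lower on day 7 (edgeR adjusted p = 0.00915 and 0.00315). mt-Atp6, the proton channel subunit of ATP synthase, had 446, 432 and 449 CPM in untreated kidney, 276, 255 and 293 on day 1, 197, 385 and 92.7 on day 2, 144, 108 and 175 on day 3, 194, 122 and 120 on day 7, and 238, 272 and 134 on day 14. It fell 3.11-fold on day 3 and 3.04-fold on day 7, and mt-Atp8, which overlaps its start, fell 2.70-fold and 2.33-fold on these days. Both genes lost a call without some libraries: mt-Atp6 without day 3 replicate 2 (edgeR adjusted p = 0.0684) and without day 7 replicate 2 or 3 (0.0605 and 0.0552), mt-Atp8 without day 3 replicate 2 (0.0573) and without untreated replicate 3 or day 7 replicate 2 or 3 (0.0706 to 0.103).

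All 13 mRNA genes, mt-Nd4l included, had their 3 libraries below all 3 untreated libraries on day 3, where this held for 13.7% of all tested genes, and on day 7, where it held for 13.6%. On day 1 it held for 11 of 13 mRNA genes (15.0% of all genes), on day 2 for 9 of 13 (14.8%) and on day 14 for 12 of 13 (10.2%). With gene-read totals as the scale, 10 of the 12 tested mRNA genes passed the test on day 3 and 10 on day 7, all lower. The share of all genes called on that scale is not given here. With TMM scaling, leaving out 1 library left between 8 and 12 of the 12 called on day 3 and between 9 and 12 on day 7. Over all tested genes, these fits called 613 to 1045 on day 3 and 607 to 1013 on day 7, in either direction. For mt-Nd1, mt-Cytb, mt-Nd6 and mt-Atp8, no window occurred letter for letter in a nuclear transcript of the GENCODE M21 set. These genes were among those called on both days, but calls of mt-Nd6 and mt-Atp8 were lost in some leave-one-out fits, as given above. Whether reads of these genes also align elsewhere in the nuclear genome was not tested.

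The day 2 count depended on single libraries. Dropping replicate 2 of that day, which had the lowest read total, gave 15 called mitochondrial genes rather than 6, both rRNA genes among them, and dropping replicate 3 gave 2. The summed CPM of the 13 mRNA genes was 81632 in day 2 replicate 2, within the untreated range of 77083 to 100476, while another day 2 library had 33912.

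Within the mitochondrial reads, mRNA fell relative to rRNA. The log2 ratio of mRNA to rRNA reads was -3.28, -3.18 and -3.24 in the untreated libraries, -3.45, -3.58 and -3.54 on day 1, -3.67, -3.47 and -4.06 on day 2, -3.90, -3.75 and -3.85 on day 3, -3.74, -3.92 and -4.20 on day 7, and -3.62, -3.74 and -4.16 on day 14. All 15 folic acid libraries were below the untreated ones, and the groups differed by the exact permutation test (p = 0.00859, adjusted p = 0.0172). The ratio was 1.22-fold lower on day 1, 1.51-fold lower on day 3, 1.65-fold lower on day 7 and 1.52-fold lower on day 14 than in untreated kidney. This ratio does not depend on how libraries are scaled.

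With the mitochondrial reads of each library as its size, 1 gene fell on day 1, 5 on day 2, 8 on day 3 and 10 on day 7, where 3.52%, 3.11%, 0.880% and 0.767% of all tested genes fell. None rose. The fits that left out 1 library called none on day 1, 2 to 5 on day 2, 3 to 5 on day 3 and 5 to 9 on day 7. On day 7 with all libraries these were mt-Nd1, mt-Nd2, mt-Nd3, mt-Nd4, mt-Nd5, mt-Co1, mt-Co2, mt-Co3, mt-Cytb and the tRNA gene mt-Te. No member was called on day 14, where 0.0773% of all genes fell and 10 members had an unadjusted p under 0.05 by edgeR, and limma-voom called 2.

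With the mitochondrial mRNA reads as the library size, both rRNA genes rose on day 2, day 3, day 7 and day 14, where 22.9%, 45.2%, 52.7% and 15.2% of all genes rose on this scale. On day 14 the log2 fold change was 0.51 ± 0.12 for mt-Rnr1 and 0.66 ± 0.15 for mt-Rnr2 (edgeR adjusted p = 0.0108 and 0.00982). Among the mRNA genes only mt-Nd2 and mt-Nd4 moved against the others on this scale, both lower on day 2 (log2 fold change -0.60 ± 0.19 and -0.51 ± 0.17, edgeR adjusted p = 0.0271 and 0.0304), where 1.91% of all genes fell. On the other days no mRNA gene passed, and their log2 fold changes on day 7 ran from -0.35 to 0.28.

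The other ratios did not pass the exact permutation test across the 6 groups. The log2 ratio of complex I to complex IV mRNA reads was -0.58 ± 0.06 on day 1, -0.87 ± 0.29 on day 2, -0.65 ± 0.11 on day 3, -0.68 ± 0.27 on day 7 and -0.51 ± 0.11 on day 14, against -0.39 ± 0.13 in untreated kidney (exact permutation p = 0.084, adjusted p = 0.14). Its libraries on days 1, 2 and 3 lay below the untreated ones. The log2 ratio of mt-Rnr1 to mt-Rnr2 was -1.73 ± 0.07 on day 14 and -1.58 ± 0.05 in untreated kidney, without overlap, but p was 0.336 across groups (exact permutation test). The ratios of tRNA to mRNA reads (p = 0.459), of mt-Nd6 to the other mRNAs (p = 0.973) and of tRNA reads on the minus strand to those on the plus strand (p = 0.536) gave still larger p in the same exact test.

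**Figure D4:**
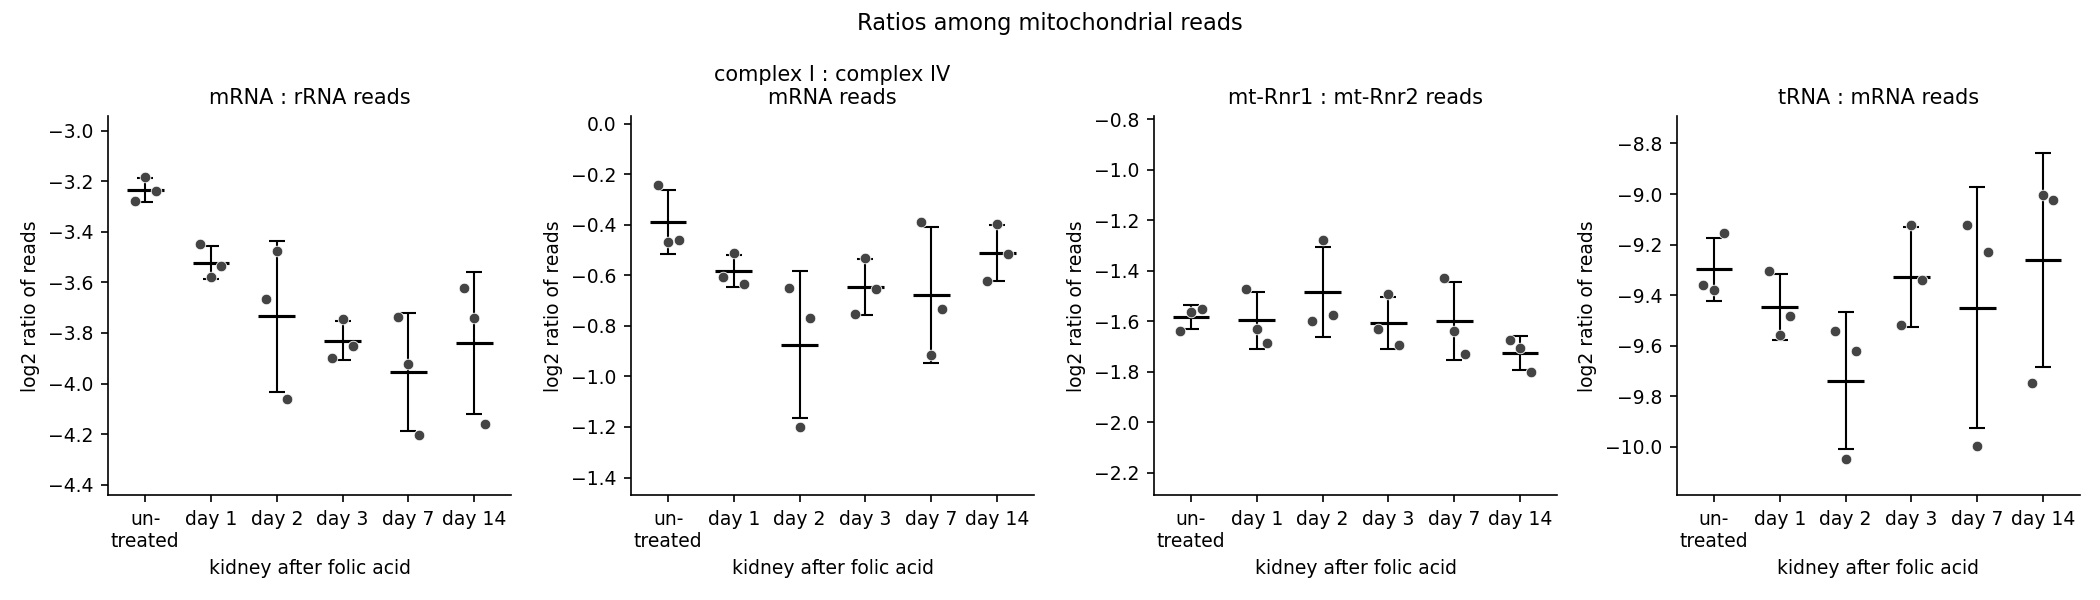
Log2 ratios of reads between mitochondrial classes in the 18 libraries (points; bar, mean; whiskers, SD), each panel spanning the same range of log2 units. The mRNA to rRNA ratio of every folic acid library is below the untreated libraries and is -3.84 on day 14 against -3.23 in untreated kidney, while the mt-Rnr1 to mt-Rnr2 and tRNA to mRNA ratios overlap between most groups.

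Reads on the tRNA genes were few and lay on a handful of genes. The 22 genes together had 456 to 4866 reads in a library, and mt-Tp (16834 reads over the 18 libraries), mt-Ts1 (13283) and mt-Tc (2452) held 70.1 to 89.0% of them. The minus-strand tRNA genes held 84.2 to 94.5% of tRNA reads. The strand setting of the counting is not given in the sources used here, and these genes lie opposite to the long plus-strand transcript, so reads of the tRNA and of RNA from the other strand cannot be told apart. The sequences below, from GENCODE M21 (GRCm38, C57BL/6J reference), are the DNA of the genes the tRNA results turn on, 5′ to 3′ on the gene's own strand. Capitals mark the anticodon, found as the middle of the 7-base loop closed by 5 base pairs, which occurred at 1 position in each gene. The first 4 names are on the minus strand and mt-Tm is on the plus strand.
mt-Te: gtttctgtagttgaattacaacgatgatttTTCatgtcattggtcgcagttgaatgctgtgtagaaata
mt-Tp: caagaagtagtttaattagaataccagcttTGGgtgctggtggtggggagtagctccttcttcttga
mt-Tc: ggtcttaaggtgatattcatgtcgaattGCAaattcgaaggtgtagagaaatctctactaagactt
mt-Ts1: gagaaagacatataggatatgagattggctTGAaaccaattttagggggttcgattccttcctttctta
mt-Tm: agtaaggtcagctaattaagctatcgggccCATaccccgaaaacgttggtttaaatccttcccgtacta

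The glutamate tRNA gene mt-Te fell on 4 of the 5 days. It had 6.74, 5.09 and 7.39 CPM in untreated kidney, 2.88, 1.60 and 2.05 on day 1, 3.79, 2.37 and 1.27 on day 2, 1.19, 1.21 and 1.49 on day 3, 1.22, 1.21 and 1.32 on day 7, and 3.38, 4.62 and 3.91 on day 14. Every folic acid library was below every untreated one, with the day 3 and day 7 libraries the lowest. It was 4.90-fold lower on day 3 and 5.11-fold lower on day 7 (log2 fold change -2.29 ± 0.45 and -2.35 ± 0.45, edgeR adjusted p = 0.00383 and 0.00322), and both calls were kept without any 1 library. Its calls on day 1 (adjusted p = 0.0263) and day 2 (0.046) were lost in 4 and 5 of 6 leave-one-out fits.

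The proline tRNA gene mt-Tp, the most read tRNA gene, had 59.6, 57.0 and 73.9 CPM in untreated kidney, 46.4, 39.7 and 44.4 on day 1, 17.2, 18.9 and 13.3 on day 2, 20.2, 29.8 and 23.7 on day 3, 28.6, 6.41 and 13.8 on day 7, and 9.80, 53.8 and 20.1 on day 14. All folic acid libraries were below untreated, but those of days 7 and 14 were widely spread. It passed the test on day 2 (3.86-fold lower, edgeR adjusted p = 0.015) and day 7 (3.90-fold lower, adjusted p = 0.0217), and the day 7 call was kept in only 2 of 6 leave-one-out fits. The day 2 call was lost without day 2 replicate 3 (edgeR adjusted p = 0.0567). The cysteine tRNA gene mt-Tc had 9.998, 6.012 and 10.01 CPM in untreated kidney, 6.03, 5.06 and 2.96 on day 1, 6.48, 3.72 and 3.19 on day 2, 2.59, 2.69 and 3.96 on day 3, 1.81, 2.46 and 3.71 on day 7, and 4.51, 7.41 and 4.15 on day 14. It was called on days 3 and 7, when its libraries lay below untreated, and not on days 1, 2 and 14, when they overlapped. Leaving out 1 library lost the call in 5 of 6 fits on day 3 and in 4 of 6 on day 7.

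mt-Ts1, the serine tRNA gene with the anticodon TGA, had 35.3, 32.03 and 58.8 CPM in untreated kidney, 37.5, 25.5 and 23.5 on day 1, 20.7, 43.9 and 16.4 on day 2, 14.8, 18.2 and 20.4 on day 3, 23.2, 13.2 and 20.6 on day 7, and 26.6, 35.5 and 24.4 on day 14. The methionine tRNA gene mt-Tm had 2.45, 1.85 and 3.07 CPM in untreated kidney, 1.57, 0.764 and 0.775 on day 1, 0.815, 1.18 and 0.538 on day 2, 0.331, 0.757 and 0.813 on day 3, 0.887, 0.392 and 1.07 on day 7, and 1.69, 1.13 and 1.38 on day 14. Both fell on day 3 alone (edgeR adjusted p = 0.0436 and 0.0496), and neither call was kept in any of 6 leave-one-out fits. mt-Th and mt-Tr, for histidine and arginine, passed only on day 7 (edgeR adjusted p = 0.0493 and 0.0332), where mt-Th had 2, 1 and 4 reads and mt-Tr 5, 8 and 5, against 10, 18 and 13 and 14, 35 and 35 in the untreated libraries. Leaving out 1 library lost the call of mt-Th in all 6 fits and that of mt-Tr in 4 of 6. Counting all 22 tRNA genes, 6 had all 3 libraries below the untreated ones on day 1, 11 on day 2, 17 on day 3, 18 on day 7 and 7 on day 14, against 15.0%, 14.8%, 13.7%, 13.6% and 10.2% of all tested genes. The 22 include mt-Tv, mt-Tw, mt-Tk and mt-Ts2, which had too few reads to be among the tested genes.

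On day 14 the classes stood at different points. The rRNA share was 65.7 ± 2.29% on day 14 and 65.3 ± 3.03% in untreated kidney, whereas the mRNA share was 4.64 ± 0.905% on day 14 and 6.94 ± 0.265% in untreated kidney (SD, n = 3 each). Only mt-Nd4 passed the test, 2.02-fold lower than untreated (log2 fold change -1.02 ± 0.24, edgeR adjusted p = 0.0386), although all 12 tested mRNA genes were lower with an unadjusted p under 0.05. That call was lost in 5 of 6 leave-one-out fits (edgeR adjusted p between 0.0585 and 0.154), and without day 14 replicate 2, the fit that kept it, there were 7 calls. Day 14 replicate 3 had the lowest mRNA share of the 3 day 14 libraries (3.60%), beside the lowest proximal tubule marker sum of the group. The groups were not alike in this. The library with the lowest marker sum also had the lowest mRNA share on days 1 and 3. In untreated kidney and on days 2 and 7 it had the highest. Between day 14 and day 3, no member passed the edgeR test, where 0.791% of all genes did, 10 had an unadjusted p under 0.05, and DESeq2 called 1. All 32 tested members had a higher fitted level on day 14 than on day 3, where the median log2 fold change of all genes was 0.004. Day 14 was compared with day 3 because earlier results showed the mitochondrial share lowest on day 3 and higher on day 14. The direction was thus known before this comparison was chosen.

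Nuclear genes that serve the mitochondrial genome were counted by list. None of the 11 genes of mitochondrial transcription (the polymerase, its factors and terminators) and none of the 22 tested genes of mitochondrial RNA processing and decay passed the edgeR test on any day, and on day 7 their median log2 fold changes were -0.78 and -0.37, against 0.06 for all genes. Of 76 tested genes of the mitochondrial ribosome, 1 rose on day 1 (Mrpl52), 1 rose and 1 fell on day 2 (Mrpl52 and Mrpl38), 2 fell on day 3 (Mrps7 and Mrps14), 3 fell on day 7 (Mrpl58, Mrpl50 and Mrps2) and none was called on day 14. Among all tested genes, 5.09% rose on day 1, 7.19% rose and 5.98% fell on day 2, 3.43% fell on day 3 and 3.85% fell on day 7, so the share called on day 7 was near that of all genes. The untreated values of Mrpl38 were 5.27, 25.8 and 9.76 CPM and overlapped those of day 2. The list's median log2 fold change was -0.21 on day 1, -0.55 on day 2, -0.55 on day 3, -0.59 on day 7 and -0.43 on day 14. Of 20 aminoacyl-tRNA synthetases and amidotransferase subunits of mitochondria, Yars2, which charges the tyrosine tRNA, and Gatb were called lower, Yars2 on days 2, 3 and 7 and Gatb on day 2. Yars2 had 6.28, 3.24 and 2.46 CPM on day 7, against 9.35, 6.94 and 34.4 CPM in untreated kidney (log2 fold change -2.07 ± 0.54, edgeR adjusted p = 0.0244). The groups did not overlap, but the size of that fold change rests on untreated replicate 3.

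Of 11 tested regulators of mitochondrial biogenesis, most were not called on any given day, and the called ones moved in both directions. On day 1, 1 rose and 3 fell, where 5.09% and 5.56% of all tested genes did. On day 2, 1 rose and 2 fell (7.19% and 5.98% of all genes), as on day 3 (4.18% and 3.43%). On day 7, 1 fell (3.85%), and on day 14 none was called. Ppargc1a, the coactivator PGC-1alpha, had 29.0, 23.6 and 24.7 CPM on day 1 and 62.8, 96.2 and 96.0 CPM in untreated kidney, without overlap, and fell 3.30-fold (edgeR adjusted p = 0.00139). It fell again on day 3 (2.50-fold, adjusted p = 0.014). Pprc1, a related coactivator, had 37.2, 18.4 and 16.2 CPM on day 1 against 3.04, 3.92 and 5.45 CPM in untreated kidney, and was 5.79-fold higher on day 1, 4.05-fold on day 2 and 2.88-fold on day 3 (edgeR adjusted p = 0.00107, 0.00533 and 0.0384). The mitochondrial deacetylase gene Sirt3 fell on days 1 and 2, the nuclear receptor genes Esrrb on day 1 and Esrrg on day 2, and Gabpa, which encodes a subunit of nuclear respiratory factor 2, on days 3 and 7. In the lists of mitochondrial DNA replication (10 tested genes) and RNA modification (18 tested genes), 3 genes passed as higher, each through 1 library. The nuclease gene Exog had 1.89, 1.01 and 32.8 CPM on day 2, against 0.109, 0.166 and 0.876 CPM in untreated kidney. Rnaseh1 had 0.998, 3.72 and 25.4 CPM on day 2, against 0.706, 0.452 and 1.63 CPM in untreated kidney, with overlap. Dna2 had 4.28, 90.2 and 6.87 CPM on day 3, against 2.88, 4.49 and 6.51 CPM in untreated kidney, also with overlap. Mto1, a tRNA modification gene, fell on day 3 without overlap.

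Nuclear pseudogene copies of mitochondrial genes were counted too. Of 10 models listed, 4 were among the counted genes and 3 could be tested. Of these 3, 1 fell on day 2, 2 on day 3 and all 3 on day 7, against 5.98%, 3.43% and 3.85% of all tested genes. Gm13340 averaged 5.41 CPM on day 7 and 15.1 CPM in untreated kidney (log2 fold change -1.48 ± 0.38, edgeR adjusted p = 0.0208).

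Summed levels of cell type markers moved over the same days, which does not tell cell number from RNA per cell. The summed CPM of 15 proximal tubule markers was 11034 to 12128 in untreated kidney, 2191 to 2509 on day 1, 1769 to 1885 on day 2, 2705 to 3189 on day 3, 1700 to 2850 on day 7 and 2763 to 7697 on day 14. All 15 were tested, and 14, 15, 15, 15 and 2 of them fell on these days. The proximal tubule marker sum and the mitochondrial mRNA share were below untreated in all 15 folic acid libraries. The summed CPM of 10 loop and distal tubule markers was 2091 to 2718 in untreated kidney. On days 1, 2 and 3 it was 411 to 651, 477 to 606 and 710 to 1073. On days 7 and 14 it was 1662 to 1860 and 2188 to 2707, the latter within the untreated range. Of these markers, 9, 8, 8, 1 and 0 fell on days 1, 2, 3, 7 and 14. The summed CPM of 12 leukocyte markers was 24.8 to 52.8 in untreated kidney, 24.03 to 45.9 on day 1, 33.1 to 55.5 on day 2, 94.5 to 142 on day 3, 193 to 320 on day 7 and 178 to 338 on day 14. The sum of 8 fibroblast markers was 45.5 to 57.5 in untreated kidney, 83.2 to 144 on day 1, 95.1 to 223 on day 2, 202 to 431 on day 3, 240 to 433 on day 7 and 234 to 519 on day 14. Single markers of a list did not all move alike. In the leukocyte list, Itgam rose and Csf1r fell on days 1 and 2. In the fibroblast list, 4 genes rose and Dcn fell on day 2. The part of the marker shifts in the mitochondrial results was not tested.

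**Figure D5:**
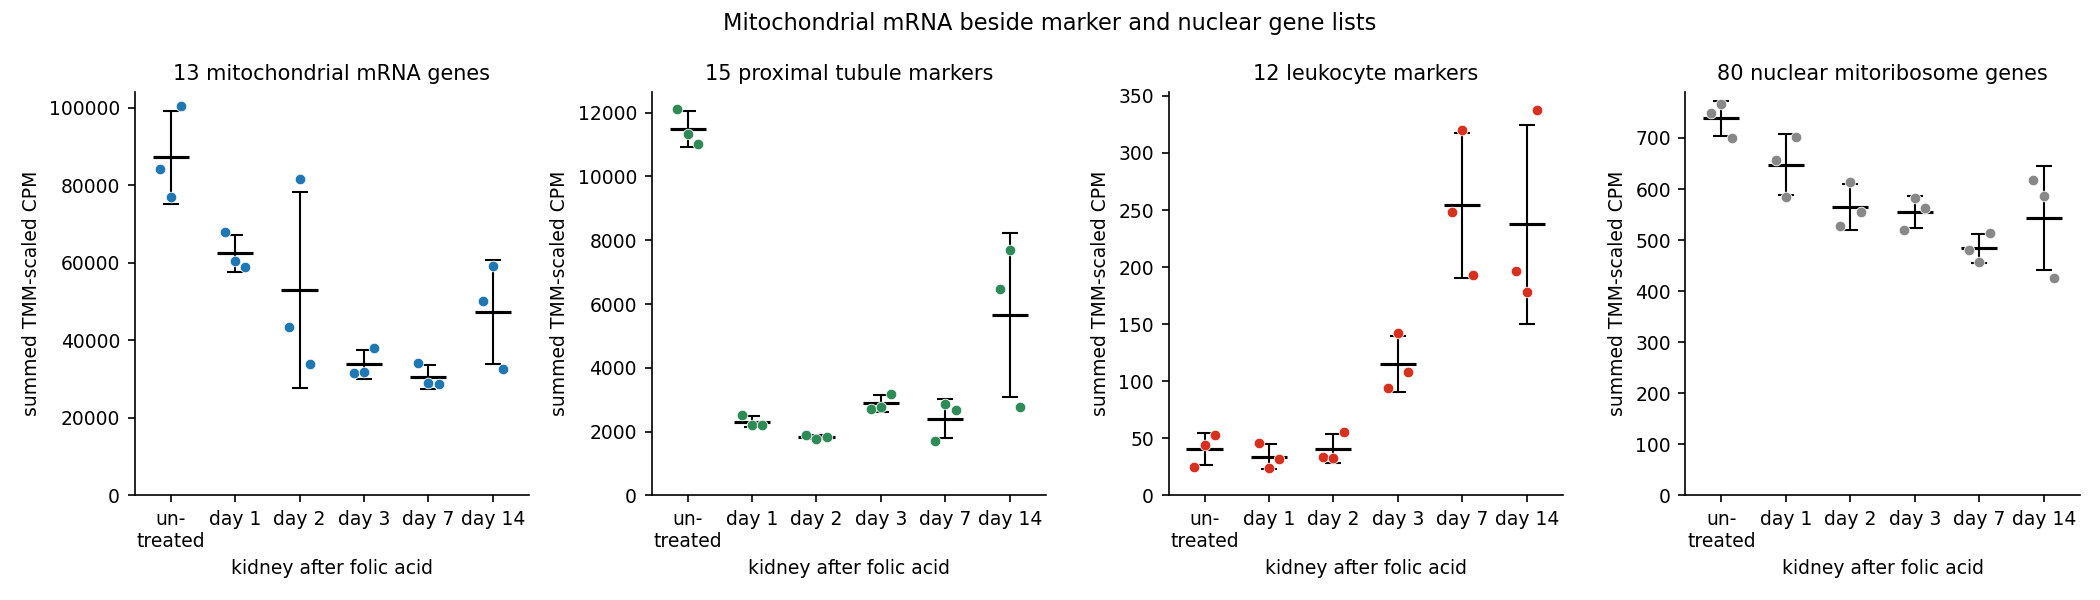
Summed TMM-scaled CPM in the 18 libraries (points; bar, mean; whiskers, SD; vertical axes starting at 0) of the 13 mitochondrial mRNA genes, 15 proximal tubule markers, 12 leukocyte markers and 80 nuclear genes of the mitochondrial ribosome. The proximal tubule markers are low from day 1 (2191 to 2509 against 11034 to 12128 in untreated kidney), and the mitochondrial mRNA sum is lowest on day 7 (28632 to 34080 against 77083 to 100476).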

How the data were processed

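The deposited table holds whole-number read counts per Ensembl gene for 18 libraries; per the submitters' processing notes, the authors used cutadapt, TopHat2 (2.07), HTSeq and DESeq with the mouse build NCBIM37. Strand setting and read length are not given in the sources used here, and a second, normalized table was not used. The 5 tally rows that name no gene stayed out of library sizes. The members and gene lists were chosen with earlier results of these data known.

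Counts were tested with edgeR 4.0.16 (R 4.3.3): filterByExpr, TMM scaling, 1 quasi-likelihood fit over 6 groups, Benjamini-Hochberg adjustment over all genes and a threshold of 0.05, with SE taken as the absolute log2 fold change over the square root of F. The fit was repeated with mitochondrial reads, or mitochondrial mRNA reads, as library sizes. Shares and ratios were tested by exact permutation of libraries (Python 3.11.15, numpy 2.4.6, pandas 2.3.3, numba 0.67.0), with Wilson 95% intervals from scipy 1.17.1. Alternatives used limma 3.58.1 and DESeq2 1.42.0, and figures matplotlib 3.10.9. The scripts were tested on simulated data.

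Depth was 8.68 to 54.6 M (1000000) gene reads per library. No libraries were copies of each other. Deviations of same-numbered libraries from their group means correlated between -0.05 and 0.04, so the numbers were not taken as pairs. Gene lengths and sequences came from GENCODE M21 (GRCm38); no coordinates are given, since the builds differ. Named were both rRNA genes, the 10 mRNA genes with the smallest p over 6 groups, the called or most read tRNA genes, and up to 3 genes per list and direction.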

Additional observations from a re-analysis of the deposited data

Results flagged for a closer look

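The reads that were assigned to no gene differed between groups, and they lie outside every comparison above. Reads over no annotated gene made up 21.5% of tallied alignments at day 3 (20.2 to 22.5%), 22.7% at day 7 (21.7 to 23.6%) and 19.3% at day 14 (17.9 to 21.3%), against 13.8 to 16.8% in untreated kidney, so every library of these days was above every untreated library. Reads with several alignments made up 25.9% at day 2 (24.2 to 27.8%) and 27.1% at day 3 (25.9 to 28.5%), against 19.4 to 23.2% in untreated kidney. With these reads added to the denominator, the differences in the mitochondrial, rRNA, mRNA and tRNA shares kept their direction and their side of the threshold in the exact permutation test over 6 groups. Only the denominator changed, so this cannot show what the shares would be if those reads were assigned to genes.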

How the results depend on the processing

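Both rRNA genes, called lower at days 3 and 7 with TMM scaling, were called higher on these days with the mitochondrial mRNA total as library size, and mt-Rnr2 at day 14, which was not called, turned to 0.04 with library totals alone. The numbers of genes called at day 3 and day 7 fell to 11 and 11 with library totals alone, a scale that moved the median of all genes to as much as 0.74, with 1 at day 1 and 10 across the 6 groups. The day 14 count of 1 became 2 with RLE size factors, 2 with scaling without the mitochondrial genes, 7 with no low-count filter, 6 with DESeq2, 5 with limma-voom and 0 when only the 2 groups compared were fitted. That last fit gave 8 at day 1 and 3 at day 2. Without the filter day 1 gave 1, and DESeq2 called 1 between day 14 and day 3. Within mitochondrial reads, the mRNA total as library size gave 0, 2, 2, 2 and 2 calls at day 1, day 3, day 7, day 14 and across groups. These calls were both rRNA genes, higher at days 3, 7 and 14, in place of the mRNA and tRNA genes called lower with all mitochondrial reads. No filter gave 0, 5, 6 and 1 at days 1, 3, 7 and 14, limma-voom gave 2 at day 1 and 2 at day 14, and the replicate block gave 1 at day 14. For the scaled counts the replicate block gave 15 genes across groups and 2, 5, 14, 17 and 1 on the 5 days. Counts over all genes under most of these settings are not given here. Changes in calls overall and in the members thus cannot be told apart. The cause was not tested.

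Leaving out 1 library gave 0 to 2 calls at day 1, 2 to 15 at day 2, 10 to 16 at day 3, 11 to 18 at day 7, 0 to 7 at day 14, 12 to 18 across groups, and 0 to 1 between day 14 and day 3. Over all tested genes, in either direction, these fits called 1164 to 1380 at day 1 and 1453 to 2005 at day 2. They called 613 to 1045 at day 3, 607 to 1013 at day 7 and 106 to 351 at day 14. The counts were 2520 to 3354 across groups and 17 to 205 between day 14 and day 3. Within mitochondrial reads, leaving out 1 library gave 0 to 0 at day 1, 2 to 5 at day 2, 3 to 5 at day 3, 5 to 9 at day 7, 0 to 1 at day 14 and 3 to 9 across groups. Over all tested genes the calls were 850 to 1089 at day 1, 1232 to 2692 at day 2 and 1299 to 3400 at day 3. They were 1163 to 2831 at day 7, 80 to 709 at day 14 and 3081 to 5453 across groups. The log2 complex I to complex IV ratio at day 2 ran from -0.60 to -0.32, and it passed the 6-group exact permutation test without day 2 replicate 1 (p = 0.0427) or day 7 replicate 1 (p = 0.0201). The day 3 differences ran from -12.7 to -9.04 points for the mitochondrial share and from -9.70 to -6.28 for the rRNA share, and the day 7 difference from -3.27 to -2.76 points for the mRNA share. The few tRNA reads, 456 to 4866 in a library, limit what could be detected for single tRNA genes.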
